A study of Mus musculus with 20 samples.

Results

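A set of 136 genes had more transcript after 4 h in AICAR than before treatment and was back near or below the starting level by 12 h, in mouse embryonic fibroblasts without AMP-activated protein kinase (AMPK). They were selected on their measured array values among the 17097 genes that have a probe set with a single gene symbol on the array, with the brightest such probe set standing for each gene. A gene was kept if its mean log2 signal at 4 h was above 6, its 4 h mean was at least 0.4 above the 0 h mean, and its 12 h mean was no more than 0.1 above the 0 h mean. Of the 345 genes that met the first 2 limits, 136 were back by 12 h and are the members, and 209 were still above the 12 h limit. The members' values at 0, 4 and 12 h therefore describe how they were picked and are given with no test.

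All 7 groups share one cell type and genotype: SV40-immortalized murine embryonic fibroblasts, labelled Ampk{alpha}1/{alpha}2 double knockout, so that both genes for the catalytic subunit of AMPK are disrupted in treated cells and controls alike. The groups were control cells at 0 h (3 arrays) and cells in 1 mM AICAR for 1, 2 and 4 h (3 arrays each), 8 h (2 arrays), 12 h and 24 h (3 arrays each). The only arrays without AICAR are those at 0 h, so time in the drug and time in the dish cannot be told apart, and no array of cells with AMPK was analysed here. Nothing in the labels tells whether the arrays of one time stem from different dishes, so the p-values rest on array-to-array variation that could be purely technical.

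AICAR is a nucleoside that cells take up and phosphorylate to ZMP, an analog of AMP, and it is widely used to switch on AMPK, the kinase that senses a shortage of cellular energy. ZMP is also a natural intermediate of purine synthesis and acts on other AMP-sensitive enzymes, which is why responses in cells without AMPK are of interest. The level of an mRNA at any time is set by how fast it is made and how fast it decays, and many genes for transcription regulators and RNA-binding proteins make short-lived mRNAs whose levels can move up and down within hours. Arrays measure the level alone, and in a bulk sample fewer cells with a transcript and less of it per cell cannot be told apart.

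Of the members, 132 are protein-coding and 2 are long noncoding RNA genes in the RefSeq table. Their mean log2 signal in the controls lay between 5.51 and 11.1, with a median of 8.47, and none fell below 5.08, the 95th percentile of the array's 23 nonspecific probe sets, on any array. The members were sorted by known role after their values had been seen. The largest groups were 28 genes for pre-mRNA splicing, processing and export and 27 genes for RNA polymerase II factors and transcription regulators. The first group is broader than its name, since it also holds Tob2, which acts in removal of poly(A) tails from mRNA. Chromatin proteins (10), chromosome segregation (10), tRNA modification and ribosome assembly (9), ubiquitin and SUMO ligases (8), vesicle transport (8), mitochondrial and lipid metabolism (7), stress and autophagy (4) and the nuclear pore (3) took a smaller share, and 22 members were placed in no role. Of 33 gene lists drawn up by pathway or family, 21 held at least 1 member and 45 members were in at least 1 list, while 0.796% of all genes on the array are members. Counted only among genes with a 4 h mean above 6, the members are 136 of 8792. The Rbm and FET list of RNA-binding proteins held 7 members of 44 genes, and the list of m6A writers, readers and erasers held 3 of 14. The Sp and Kruppel-like factors gave 3 of 21 and the Zfp-named zinc finger genes 9 of 295. The lists for the folliculin complex (9 genes), O-GlcNAc cycling (8), AMPK subunits (16) and the Hippo pathway (17) held 0 members. So did those for DEAD-box and DEAH-box helicases (48) and ubiquitin-specific proteases (47). Lists this short hold few members at the array-wide share, so a count of 0 is not a contrast.

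RefSeq promoter windows, which run from 250 bases before to 50 bases after a transcription start, were found for 115 members, giving 137 windows on GRCm38.p6. The windows of 4 members that carry the results below are printed 5′ to 3′ on the gene's strand, with the GC box (GGGCGG) and the CCAAT box (CCAAT) in capitals on either strand, so that CCGCCC and ATTGG are the same boxes read from the other strand. They belong to the member that stood highest above the controls at 4 h (Rbm4), to the m6A writer subunit Wtap, and to Cenpl and Pcf11, both of which changed at 2 h and again at 8 h. Where RefSeq gives a gene several windows, the one with the lowest coordinate is shown: 1 of 2 for Rbm4 and 1 of 3 for Wtap.
Rbm4, chr19:4793852-4794151, minus strand: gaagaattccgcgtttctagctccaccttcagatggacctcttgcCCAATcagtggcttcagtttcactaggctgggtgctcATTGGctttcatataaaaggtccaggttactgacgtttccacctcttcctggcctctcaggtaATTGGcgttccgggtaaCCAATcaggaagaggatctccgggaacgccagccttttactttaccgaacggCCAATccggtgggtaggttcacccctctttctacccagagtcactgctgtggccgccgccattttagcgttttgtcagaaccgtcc
Cenpl, chr1:161070517-161070816, plus strand: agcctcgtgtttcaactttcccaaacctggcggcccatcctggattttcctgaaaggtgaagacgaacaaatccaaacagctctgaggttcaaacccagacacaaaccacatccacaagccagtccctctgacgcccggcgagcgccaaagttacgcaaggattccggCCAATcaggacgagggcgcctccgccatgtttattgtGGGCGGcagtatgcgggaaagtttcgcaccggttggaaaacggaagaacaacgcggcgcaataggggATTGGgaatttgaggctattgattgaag
Pcf11, chr7:92669863-92670162, minus strand: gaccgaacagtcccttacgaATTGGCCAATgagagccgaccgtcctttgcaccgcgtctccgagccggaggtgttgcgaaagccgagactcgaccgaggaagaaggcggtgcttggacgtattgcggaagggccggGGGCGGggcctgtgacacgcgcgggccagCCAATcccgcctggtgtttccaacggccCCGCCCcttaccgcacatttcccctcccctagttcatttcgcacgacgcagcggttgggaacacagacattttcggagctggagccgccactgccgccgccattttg
Wtap, chr17:12992210-12992509, minus strand: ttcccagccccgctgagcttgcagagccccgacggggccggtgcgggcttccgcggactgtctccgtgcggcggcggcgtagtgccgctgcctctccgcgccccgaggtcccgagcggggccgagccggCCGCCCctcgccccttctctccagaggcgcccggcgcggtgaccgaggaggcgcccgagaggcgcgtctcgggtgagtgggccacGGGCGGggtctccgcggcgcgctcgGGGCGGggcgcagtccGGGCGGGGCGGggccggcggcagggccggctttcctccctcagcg
The Rbm4 window holds 5 CCAAT boxes and 0 GC boxes, and the Wtap window holds 5 GC boxes, the last 2 of which overlap, and 0 CCAAT boxes. Pcf11 has 2 GC boxes and 3 CCAAT boxes, of which 2 adjoin head to head, and Cenpl has 1 GC box and 2 CCAAT boxes.

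A GC box was found in 68.6% of the members' windows and in 58.3% of the 13235 windows of all tested genes. A CCAAT box was found in 47.4% of the members' windows, against 37.4% for the tested genes. The ETS core CCGGAAG stood in 20.4% against 15.5%, the NRF1 site GCGCATGC in 7.30% against 4.65%, the YY1 core AAGATGG in 8.03% against 6.87%, and the cAMP response element TGACGTCA in 3.65% against 2.85%. The AP-1 site TGACTCA stood in 4.38% against 4.02%, the E-box CACGTG in 6.57% against 9.47%, the TATA box TATAAA in 7.30% against 8.32% and the E2F core TTCGCGC in 0.73% against 2.70%. All were searched on both strands. The members' windows had a median GC content of 63%, against 60% for those of all tested genes. They held a median of 24 CG dinucleotides each, against 19. These shares are a description of letters in the windows and were not tested.

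At 4 h the members stood between 0.40 and 1.18 above the controls on the log2 scale, with a median of 0.51. Their median difference from the controls was -0.03 after 1 h and 0.24 after 2 h of AICAR. Past the 4 h peak it was 0.08 at 8 h, then -0.07 at 12 h and 0.08 after 24 h. The group mean was highest at 4 h in 120 members and at 2 h in 7. It was highest in 1 member at 8 h and in 8 at 24 h. In 104 members the mean was higher at each step from 1 h through 2 h to 4 h and lower at each step to 8 h and 12 h. At 1 h 2 members, and at 2 h 26, were at least 0.4 above the controls. That held for 12 members at 8 h and for 14 members at 24 h. By the third limit 96 members lay below the control mean at 12 h, and 12 of them by 0.4 or more, the lowest being Riok2 (-0.72), Rbm14 (-0.59), Zfr (-0.52), Maml1 (-0.52) and Pcf11 (-0.51). All 136 members were above their control mean on each of the 3 arrays at 4 h. The array with the highest value of the 3 was replicate 1 for 69 members, replicate 2 for 49 and replicate 3 for 18.

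**Figure D1:**
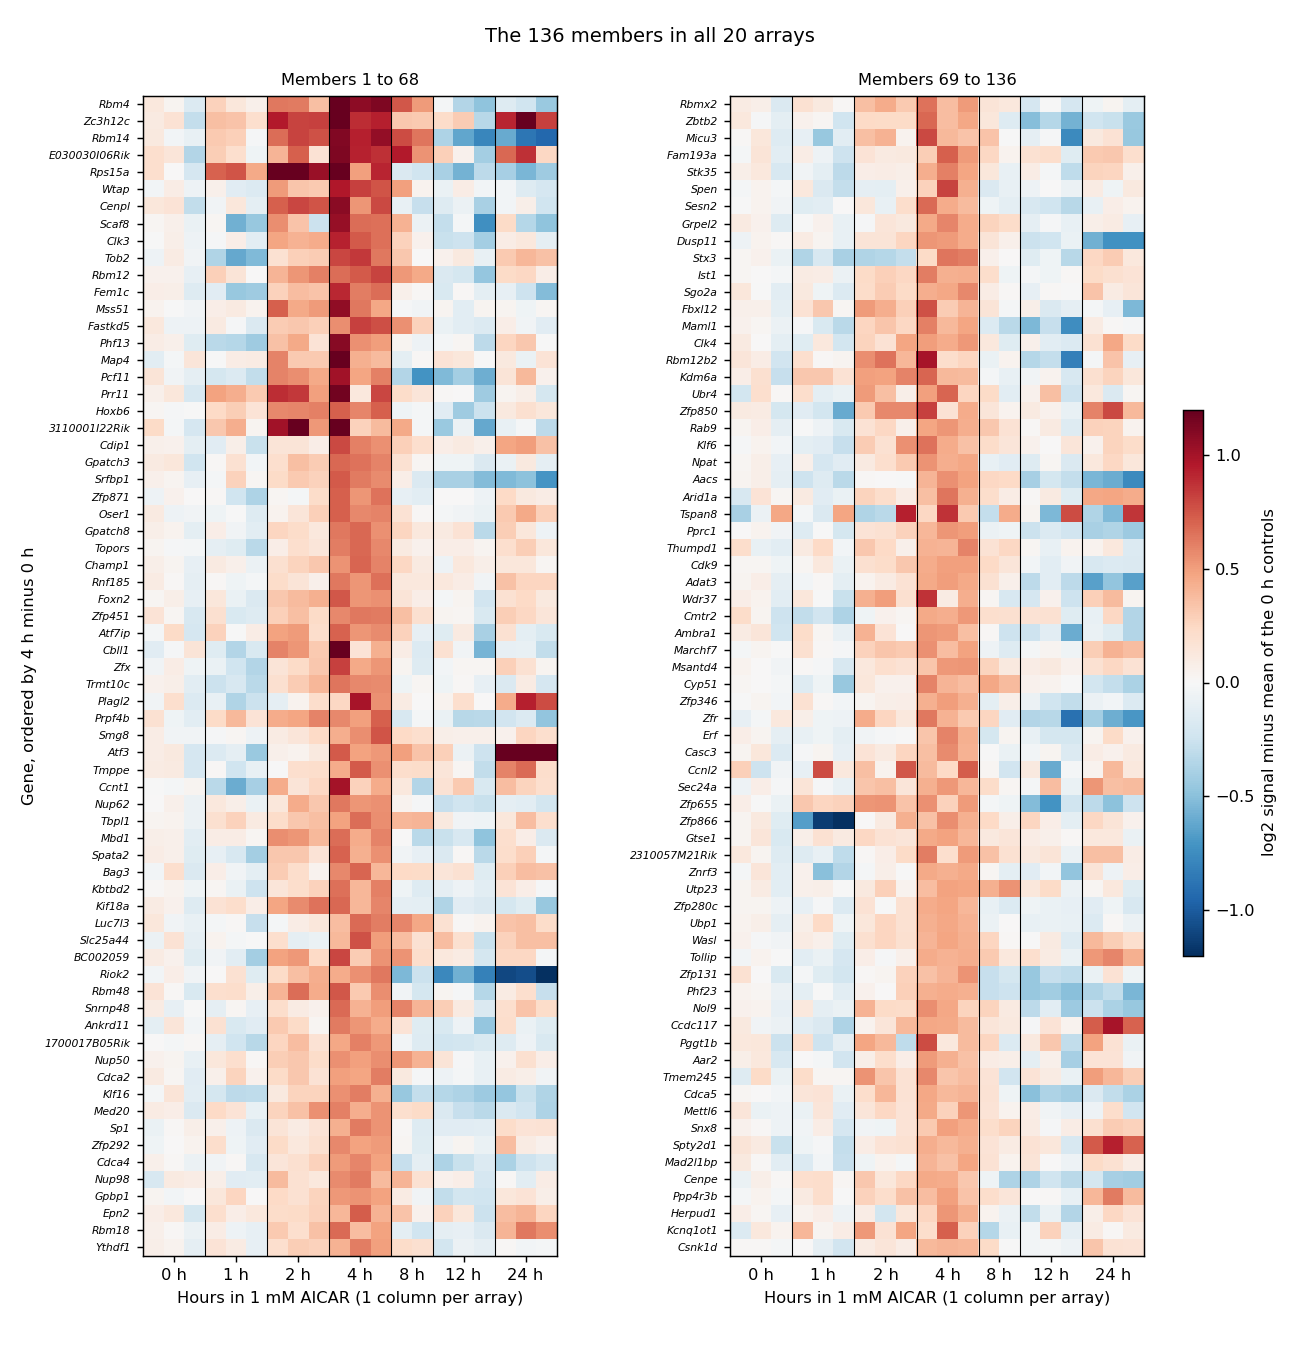
Log2 signal of each of the 136 members (rows, ordered by the 4 h difference) on each of the 20 arrays (columns, by hours in AICAR), minus that gene's mean over the 3 control arrays; red is above and blue below the controls, and the colour scale stops at 1.2 in each direction. The 4 h columns are red throughout because the members were chosen so, most rows are already pale red at 2 h, and at 24 h some rows are red again (Atf3, Spty2d1, Ccdc117) and others blue (Riok2, Rbm14, Dusp11).

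At the edge of the 0.4 limit, Csnk1d, a casein kinase (0.401), the antisense RNA Kcnq1ot1 (0.402) and Herpud1 (0.403) were just inside, and Zfp410 (0.399), Bach1 (0.392) and Numb (0.392) were just outside. At the 12 h limit, Map4 (0.0991), Ccnt1 (0.0984) and Slc25a44 (0.0968) were just inside, and Zbtb10 (0.106), Zfp445 (0.106) and Zbtb39 (0.114) just outside. The members nearest to the limit on the level were Tmppe (6.09), Spen (6.20) and Map4 (6.25) at 4 h, and Ccdc25 (5.55) was the nearest gene below it.

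The arrays themselves were alike in level, with medians between 5.16 and 5.32, and precision is limited by their number. Replicate 3 of the controls had a median of -0.10 for the members' deviation from the control mean, and 16 members were above that mean there, against 100 and 109 on the other 2 control arrays. Replicate 3 was also the lowest for the members at 1 h (-0.12), 12 h (-0.18) and 24 h (0.03). At 4 h it was lowest by little (0.495, beside 0.557 and 0.499), and at 2 h all 3 arrays were at 0.23. The 8 h group holds replicates 1 and 2 and no replicate 3, and the medians of its 2 arrays were 0.15 and 0.01. RNA quality was read from actin probe sets at either end of the transcript: the 3′ end exceeded the 5′ end by 0.44 to 0.69 on the 4 h arrays, against 0.38 to 0.46 on the control arrays. That range was 0.43 to 0.65 on the 8 h arrays, against 0.39 to 0.52 on the 2 h arrays, and replicate 2 at 8 h was the second highest of all. Replicate 2 at 4 h had the highest value, and without it 145 genes met the limits, of which 122 are among the 136. Of 10 fibroblast markers 8 were above the nonspecific level in the controls and Col1a2 and Thy1 were not, while 2 of 8 macrophage markers, 1 of 6 endothelial, 4 of 6 epithelial and 6 of 6 muscle markers were above it. None of these markers is a member. The part of replicate number in the results was examined by leaving arrays out and by a fit with the number as a block, given at the end. That of RNA quality was not tested beyond leaving arrays out. The probe set for Prkaa1 read 8.19 and that for Prkaa2 5.63 in the controls, and since the sources used here do not place the probes relative to the deleted parts, these values do not check the knockout.

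The times at 1, 2, 8 and 24 h played no role in choosing the members, so differences among them could be tested. The first comparison, 2 h against 1 h, asks whether the members were going up from their 1 h level before 4 h. That level was above the control mean in 56 of 136 members, and at 2 h 132 members were above it. By this test 23 of 136 members rose (limma, Benjamini-Hochberg adjusted p below 0.05 over 12944 tested genes) and 0 fell, whereas 0.664% of all tested genes rose and 0.0618% fell. Those 23 are 26.7% of the 86 genes that rose on the whole array. The median difference was 0.26 for the members, against 0.01 for all tested genes, and 132 of 136 members had a positive difference. In 95 members all 3 arrays at 2 h lay above all 3 at 1 h, an ordering found in 6.70% of the tested genes, and in 0 members did they all lie below, against 5.04%. Among tested genes with a mean above 6, which are nearer to the members in brightness, 0.957% rose and 0.0676% fell.

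The number that passed depended on single arrays. It was 7 without replicate 3 at 1 h, 13 without replicate 2 at 1 h, and 13, 9 and 9 without replicates 1, 2 and 3 at 2 h, while the members' median difference lay between 0.20 and 0.31 over the 6 fits that each leave out 1 array. The 6 named members that rose in the full data and without each of the 6 arrays in turn were Zfp866, Tob2, Pcf11, Fem1c, Klf16 and Trmt10c, along with 1 Riken clone. In that order the 1 h means of the 6 stood at -1.03, -0.50, -0.22, -0.34, -0.28 and -0.26 relative to the controls. Each of these rises thus began below the control mean. When each gene's probe sets were averaged, Tob2 and Fem1c of the 6 did not pass.

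**Figure D2:**
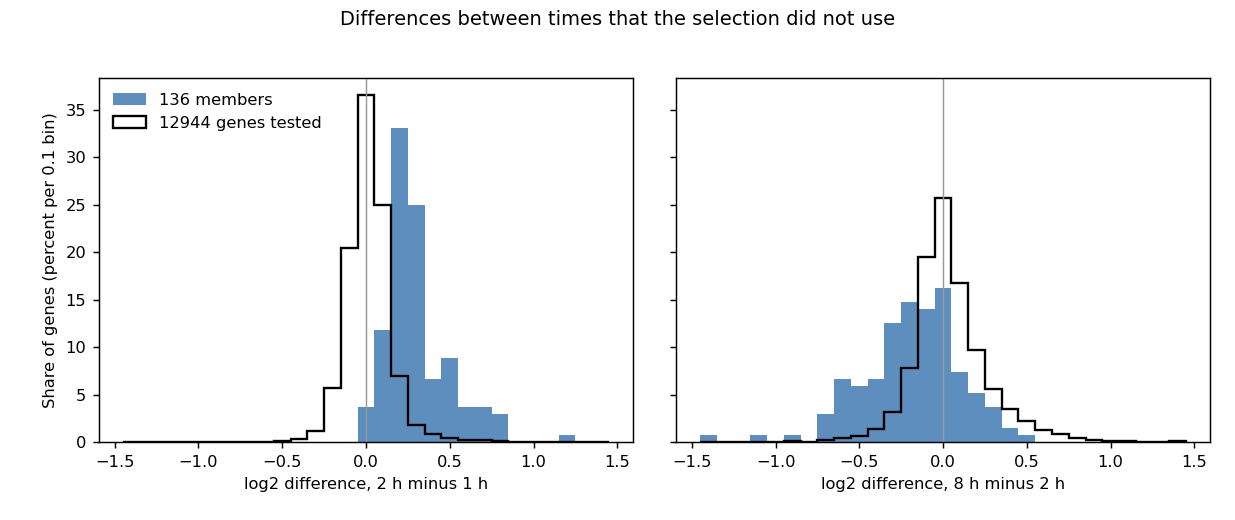
Share of genes per 0.1 bin of log2 difference, for the 136 members (blue) and the 12944 tested genes (black outline), at 2 h minus 1 h (left) and at 8 h minus 2 h (right). The members are shifted to the right of 0 in the left panel (median 0.26) and to the left of it in the right panel (median -0.17), while all tested genes centre on 0 in both.

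The 8 h against 2 h comparison asks whether the members were coming down before 12 h. Like every comparison with 8 h, it sets replicates 1 and 2 against replicates 1, 2 and 3. Here 28 of 136 members fell and 5 rose (limma, Benjamini-Hochberg), against 2.49% of all tested genes that fell and 7.54% that rose (3.44% and 9.66% of the brighter ones). The median difference was -0.17 for the members and 0.01 for all tested genes, and 106 members had a negative difference. The 2 arrays at 8 h lay below all 3 at 2 h in 62 members and above them in 14, orderings found in 13.4% and 24.4% of the tested genes. Without replicate 1 at 8 h 12 members fell and 0 rose, without replicate 2 at 8 h, the array with the higher actin 3′ excess of the 2, 12 fell and 1 rose, and without replicate 3 at 2 h 20 fell and 1 rose. Cenpl, Hoxb6, Kif18a, Klf16, Marchf7, Pcf11 and Rps15a fell in the full data and without each of the 5 arrays in turn.

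The 209 genes that met the 4 h limits but stayed above the 12 h limit also moved at 2 h, where 28 rose and 0 fell relative to 1 h, beside 0.664% and 0.0618% of all tested genes. Relative to 2 h, 48 of these 209 rose at 8 h and 6 fell, against 5 and 28 of the 136 members and 7.54% and 2.49% of all tested genes. Their median difference at 8 h minus 2 h was 0.16, against -0.17 for the members. At 24 h against 1 h, 175 of the 209 rose and 3 fell, beside 26.8% and 13.1% of all tested genes.

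The 8 h against 1 h comparison asks how far the members were above the 1 h level at 8 h. In it 24 members rose and 4 fell (limma, Benjamini-Hochberg), beside 8.35% and 2.14% of all tested genes (976 and 262 of the 8878 brighter ones), and the members' median difference was 0.11. The count was 7 without replicate 1 at 8 h, 16 without replicate 2 at 8 h and 14 without replicate 3 at 1 h, in both directions together. At 24 h against 1 h, 45 members rose and 21 fell, beside 26.8% and 13.1% of all tested genes, and among the brighter tested genes 33.9% rose and 17.3% fell, so that the members' shares of 33.1% and 15.4% were near the background. At 24 h against 8 h, 16 members rose and 19 fell, beside 13.8% and 10.0% of all tested genes (1549 and 1201 of the 8878 brighter ones).

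**Figure D3:**
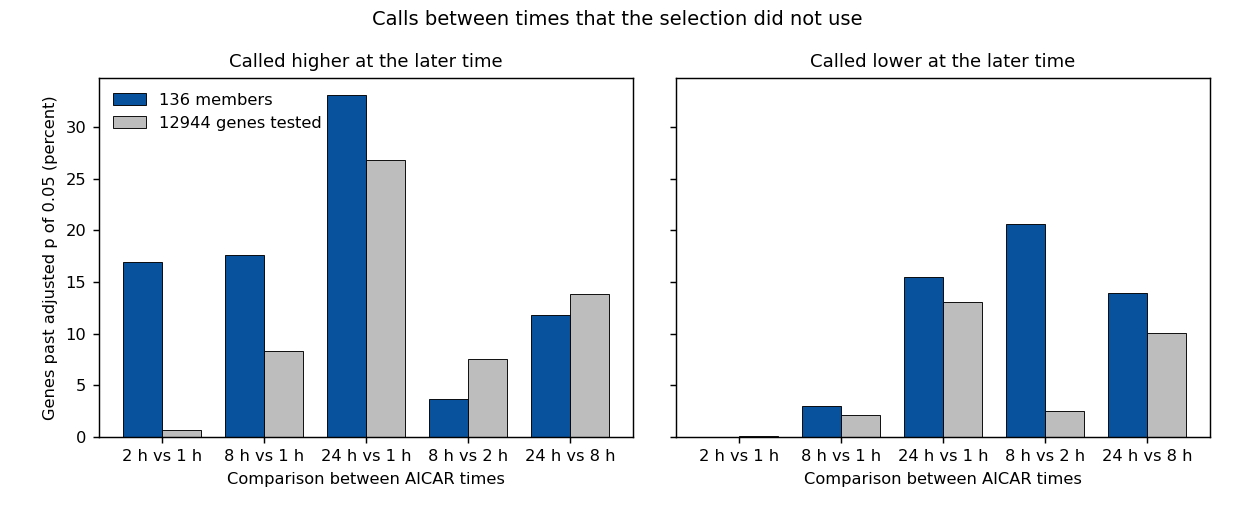
Percent of the 136 members (blue) and of the 12944 tested genes (grey) that passed an adjusted p of 0.05 in limma, called higher (left) and lower (right) at the later time, in the 5 comparisons between times that the choice of members did not use. The bars differ most at 2 h against 1 h on the left (16.9% and 0.664%) and at 8 h against 2 h on the right (20.6% and 2.49%), and stand close together at 24 h.

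Among the RNA-processing members, 5 of 28 rose at 2 h against 1 h (Pcf11, Tob2, Rbm14, Clk3 and Wtap), and all 28 had a positive difference. Over all 136 members 16.9% rose and 97.1% had a positive difference there, and over all tested genes 0.664% and 53.7%, so this role was near the members as a whole. The roles were sorted after the values were seen and their counts were not tested. At 8 h against 2 h, 4 of the 28 fell (Pcf11, Rbm48, Prpf4b and Rbm18) and 2 rose (Luc7l3 and Snrnp48), beside 20.6% and 3.68% of all members and 2.49% and 7.54% of all tested genes. The Rbm genes encode proteins with RNA recognition motifs, and Rbm4 and Rbm14, which lie next to each other on chromosome 19, regulate alternative splicing.
Rbm4, measured by 1 probe set, read 8.42, 8.33 and 8.14 at 0 h, 8.57, 8.44 and 8.36 at 1 h, 8.94, 8.92 and 8.66 at 2 h, 9.63, 9.37 and 9.42 at 4 h, 9.05 and 8.81 at 8 h, 8.27, 7.95 and 7.82 at 12 h and 8.14, 8.06 and 7.85 at 24 h. All arrays at 2, 4 and 8 h were above all controls, and the 4 h arrays were above every other array. The 4 h mean was 2.26-fold that of the controls. At 24 h Rbm4 was 0.91 ± 0.14 (SE) below 8 h and 0.44 ± 0.12 (SE) below 1 h, both past the test (limma, Benjamini-Hochberg adjusted p = 8.25e-05 and 0.00683), while the difference of 0.38 between 2 h and 1 h did not pass.

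Rbm14, also known as a transcriptional coactivator and paraspeckle protein, read 10.67, 10.65 and 10.35 at 1 h, 11.03, 11.17 and 11.12 at 2 h, 11.14 and 11.001 at 8 h and 9.75, 9.49 and 9.42 at 24 h. Its arrays at 2 h and 8 h overlapped each other and lay above those at 1 h, and those at 24 h lay below every other time except 12 h, where the values were 9.99, 9.73 and 9.58. Rbm14 rose by 0.55 ± 0.11 (SE) at 2 h against 1 h (adjusted p = 0.0231, limma with Benjamini-Hochberg) and fell by 1.52 ± 0.13 (SE) at 24 h against 8 h (adjusted p = 1.24e-07). The rise at 2 h did not pass without 5 of the 6 arrays in turn. All 5 probe sets of Rbm14 gave a 4 h difference from the controls between 0.90 and 1.07.
Rbm18 took another course at the late times, with 9.88, 9.77 and 9.92 at 2 h, 9.44 and 9.32 at 8 h and 9.97, 10.20 and 10.12 at 24 h. Both arrays at 8 h were below those at 2 h and at 24 h. It fell by 0.47 ± 0.09 (SE) at 8 h against 2 h (adjusted p = 0.00377) and rose by 0.72 ± 0.09 (SE) at 24 h against 8 h (adjusted p = 2.41e-05, limma with Benjamini-Hochberg). The fall was lost without replicate 2 at 8 h and with the mean of its probe sets (-0.26, limma adjusted p = 0.194). The other Rbm members, Rbm12, Rbm48, Rbmx2 and Rbm12b2, stood 0.74, 0.54, 0.51 and 0.49 above the controls at 4 h.

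Wtap, a subunit of the complex that writes m6A on mRNA, read 10.15, 10.27 and 10.13 at 0 h, 10.24, 10.05 and 10.02 at 1 h, 10.69, 10.52 and 10.49 at 2 h, 11.14, 11.0001 and 10.93 at 4 h, 10.68 and 10.23 at 8 h, 10.11, 10.27 and 10.15 at 12 h and 10.15, 10.03 and 9.98 at 24 h. The 3 arrays at 2 h were above all arrays at 0 and 1 h, the 3 at 4 h were above all others, and the 2 at 8 h stood apart from each other. Wtap rose by 0.46 ± 0.10 (SE) at 2 h against 1 h (adjusted p = 0.0426, limma with Benjamini-Hochberg), a call lost without 5 of the 6 arrays in turn, and fell by 0.40 ± 0.12 (SE) at 24 h against 8 h (adjusted p = 0.0169), a call lost without replicate 1 at 8 h. Cbll1, another subunit of the writer complex, and Ythdf1, a cytoplasmic reader of the mark, were 0.60 and 0.51 above the controls at 4 h. Neither passed the test in any of the 5 comparisons, and on the 3 arrays at 4 h Cbll1 read 9.36, 8.32 and 8.58.

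Pcf11, a factor for cleavage of the pre-mRNA end and for transcription termination, read 7.80, 7.84 and 7.71 at 1 h, 8.60, 8.56 and 8.46 at 2 h, 7.65 and 7.29 at 8 h and 8.16, 8.39 and 8.06 at 24 h. The arrays at 2 h were above those at 1, 8 and 24 h, and those at 8 h were below all of these. Pcf11 rose by 0.76 ± 0.13 (SE) at 2 h against 1 h (adjusted p = 0.00472) and fell by 1.07 ± 0.14 (SE) at 8 h against 2 h (adjusted p = 0.00023), 2 comparisons that share the 2 h arrays. It rose again, by 0.74 ± 0.14 (SE), at 24 h against 8 h (adjusted p = 0.000728, all limma with Benjamini-Hochberg).
Tob2 binds the CCR4-NOT complex, which removes poly(A) tails. It read 9.68, 9.84 and 9.69 at 0 h, 9.37, 9.12 and 9.21 at 1 h, 9.92, 10.02 and 10.04 at 2 h and 10.05, 10.14 and 10.09 at 24 h. The 1 h arrays were below all controls and the 2 h arrays above them. The rise of 0.76 ± 0.09 (SE) at 2 h against 1 h (adjusted p = 0.000282, limma with Benjamini-Hochberg) thus began from a level under that of the controls, and averaged over its 5 probe sets it was 0.50 (adjusted p = 0.0515). Without the _x_ and _s_ types, which can cross-hybridise, it was 0.45 (adjusted p = 0.765).

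The kinases that phosphorylate SR splicing factors were represented by Clk3 and Clk4. Clk3 read 8.56, 8.51 and 8.54 at 2 h, against 8.07, 8.17 and 7.97 at 1 h, with no overlap, and rose by 0.47 ± 0.09 (SE, limma adjusted p = 0.012 with Benjamini-Hochberg), a call lost without replicate 3 at 1 h or replicate 1 or 3 at 2 h. Clk4 rose by 0.37 ± 0.11 (SE) at 24 h against 1 h (limma adjusted p = 0.00948), a call lost without replicate 3 at 1 h or replicate 2 at 24 h, and its difference of 0.38 between 2 h and 1 h did not pass. Prpf4b, a kinase of the spliceosome, fell by 0.61 at 8 h against 2 h on the brightest of its 6 probe sets.
Luc7l3, a U1 snRNP-associated protein, and Snrnp48, a protein of the minor spliceosome, were the 2 of this role that rose at 8 h against 2 h. Luc7l3 read 11.68 and 11.56 at 8 h, against 11.07, 11.18 and 11.24 at 2 h, and rose by 0.46 ± 0.11 (SE, limma adjusted p = 0.0108 with Benjamini-Hochberg), a call lost without replicate 1 at 8 h. Snrnp48 read 9.32 and 9.13 at 8 h, against 8.94, 8.83 and 8.78 at 2 h, and its rise of 0.38 (limma adjusted p = 0.0431) did not pass without any of the 5 arrays in turn. Averaging the 4 probe sets of Snrnp48 turned its sign (-0.017, limma adjusted p = 0.966), and with that setting Luc7l3 did not pass (0.53, adjusted p = 0.205). Zc3h12c, of a family of RNases, stood 1.11 above the controls at 4 h and again 0.98 above at 24 h, where it read 7.51, 7.79 and 7.42, against 6.92 and 6.91 at 8 h. Its rise of 0.66 ± 0.19 (SE) at 24 h against 8 h passed (limma adjusted p = 0.0156) but was lost without replicate 1 or 2 at 8 h or replicate 2 at 24 h. Scaf8, a protein that binds the tail of RNA polymerase II, was 0.79 above the controls at 4 h and passed in none of the 5 comparisons, its arrays at 2 h reading 8.25, 8.03 and 7.44.

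**Figure D4:**
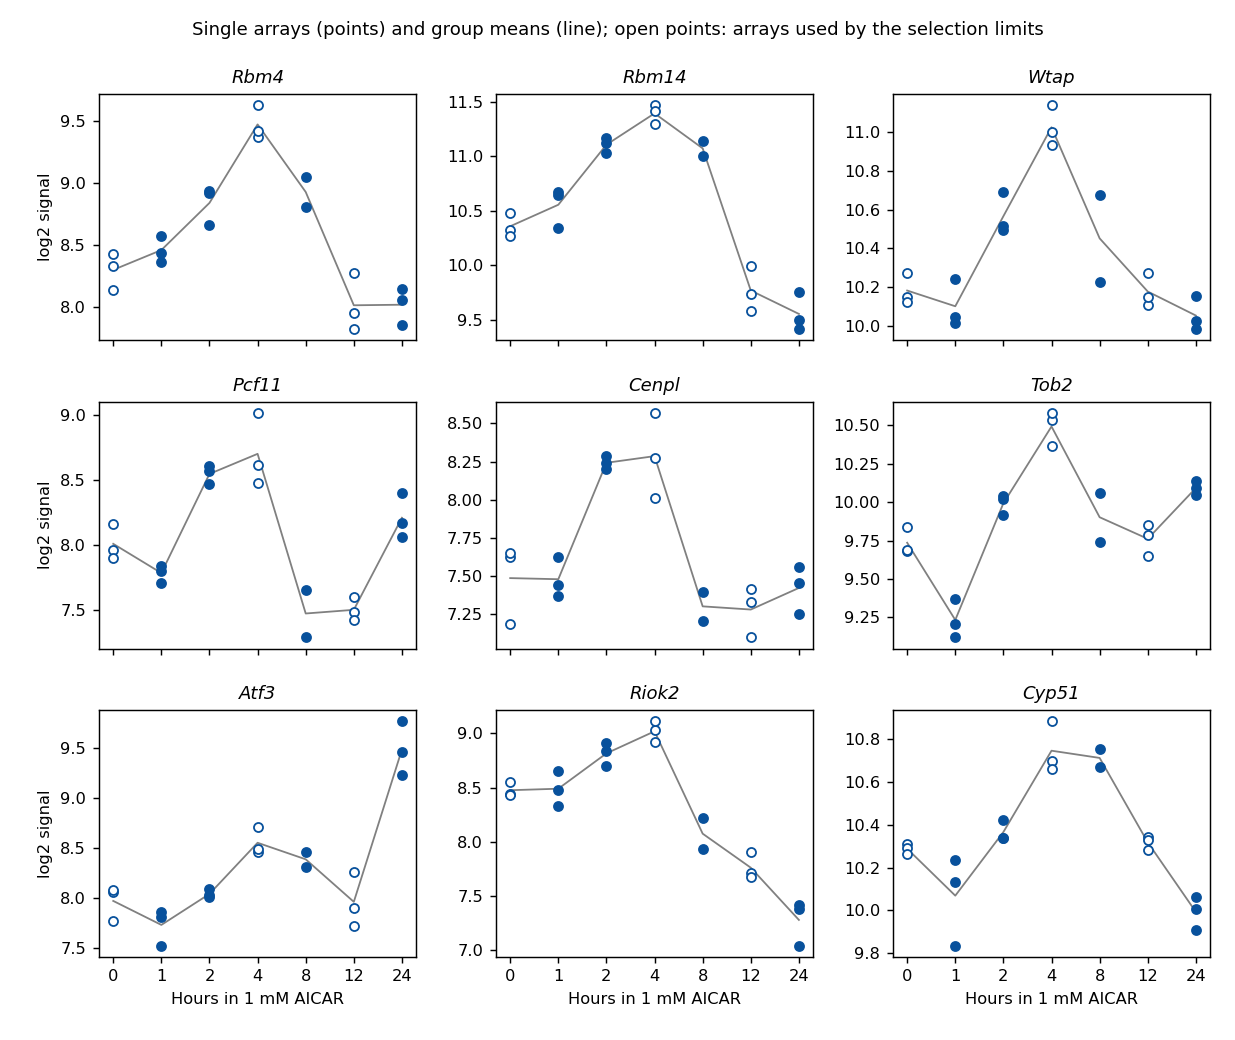
Log2 signal against hours in AICAR (evenly spaced steps, not to scale) for 9 members: each point is an array, the line joins group means, and open points are arrays at the times used to choose the members. Rbm4, Rbm14 and Wtap are highest at 4 h and low again at 12 h, Pcf11, Cenpl and Riok2 are already low at 8 h, Tob2 starts from a dip at 1 h, Atf3 is highest at 24 h and Cyp51 stays up at 8 h.

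Among the 27 RNA polymerase II factors and transcription regulators, 10 rose at 2 h against 1 h and all 27 had a positive difference, beside 16.9% of all members and 0.664% of all tested genes that rose. At 8 h against 2 h 6 fell and 0 rose, beside 2.49% and 7.54% of all tested genes and 20.6% and 3.68% of the members. The zinc finger gene Zfp866 read 7.21, 7.30 and 7.04 at 0 h, 6.53, 6.04 and 5.89 at 1 h and 7.19, 7.29 and 7.61 at 2 h. The 1 h arrays were below all others, and those at 0 h and 2 h overlapped. Its difference of 1.21 ± 0.14 (SE) between 2 h and 1 h (limma adjusted p = 0.000265 with Benjamini-Hochberg) was the largest of the members and came with a 1 h mean 1.03 below the controls, so that the 2 h level was within 0.18 of the start. Zfp850 rose by 0.81 ± 0.15 (SE, limma adjusted p = 0.0131, kept in 3 of 6 fits without 1 array) and read 7.97, 8.24 and 8.24 at 2 h, against 7.53, 7.44 and 7.05 at 1 h.

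Ccnt1 and Cdk9 encode the 2 subunits of P-TEFb, the kinase that releases paused RNA polymerase II, and both are members. Ccnt1 read 8.72, 8.45 and 8.64 at 1 h, 9.49, 9.20 and 9.29 at 2 h and 9.41, 9.31 and 9.24 at 24 h. Its arrays at 2 h and 24 h lay above all those at 1 h. It rose by 0.72 ± 0.16 (SE) at 2 h against 1 h (limma adjusted p = 0.0426, lost without each of the 6 arrays in turn) and by 0.72 ± 0.16 (SE) at 24 h against 1 h (adjusted p = 0.00137, kept without each array). Both rises began below the controls: the mean of Ccnt1 differed from theirs by -0.44 at 1 h, 0.29 at 2 h and 0.28 at 24 h. Cdk9 read 10.59, 10.70 and 10.49 at 1 h, 10.76, 10.78 and 10.89 at 2 h, 10.81 and 10.71 at 8 h and 10.38, 10.41 and 10.40 at 24 h. The 24 h arrays were the lowest, and Cdk9 fell by 0.37 ± 0.07 (SE) at 24 h against 8 h (limma adjusted p = 0.000877 with Benjamini-Hochberg). Whether the 2 genes differ from each other was not tested.

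Of the Sp and Kruppel-like factors, which bind GC-rich motifs, Klf16 and Klf6 rose at 2 h against 1 h by 0.49 ± 0.08 and 0.52 (limma adjusted p = 0.00517 and 0.0095), and the difference of 0.20 for Sp1 did not pass. The call for Klf6 was lost without replicate 3 at 1 h or at 2 h, and with the mean of its 3 probe sets (0.57, limma adjusted p = 0.828). Klf16 read 8.86, 8.75 and 8.76 at 1 h, 9.18, 9.33 and 9.33 at 2 h, 8.61 and 8.78 at 8 h and 8.60, 8.79 and 8.70 at 24 h. Only the arrays at 2 h stood apart among these 4 times, and the fall of 0.59 ± 0.09 (SE) at 8 h against 2 h passed (limma adjusted p = 0.000899). Hoxb6, a homeobox transcription factor, read 7.68, 7.73 and 7.60 at 1 h, 8.02, 8.02 and 8.04 at 2 h and 7.39 and 7.41 at 8 h. It fell by 0.63 ± 0.08 (SE) at 8 h against 2 h (limma adjusted p = 0.000122). Maml1, a coactivator of Notch, and Pprc1, a coactivator related to PGC-1, rose at 2 h and fell at 8 h with smaller differences (0.45 and -0.52 for Maml1, 0.34 and -0.27 for Pprc1), and the rise was kept in 1 of 6 fits without 1 array for Maml1 and in 2 of 6 for Pprc1.

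Atf3, a stress-induced transcription factor, read 8.06, 8.08 and 7.76 at 0 h, 7.80, 7.86 and 7.52 at 1 h, 8.02, 8.01 and 8.08 at 2 h, 8.70, 8.45 and 8.49 at 4 h, 8.46 and 8.31 at 8 h, 8.25, 7.90 and 7.72 at 12 h and 9.22, 9.76 and 9.46 at 24 h. The 24 h arrays were above all others. It rose by 1.10 ± 0.16 (SE) at 24 h against 8 h and by 1.75 ± 0.14 (SE) at 24 h against 1 h (limma adjusted p = 5.86e-05 and 2.99e-08 with Benjamini-Hochberg). Its 24 h mean was thus higher than its 4 h mean, as in 7 other members: Plagl2, Rbm18, Zfp850, Tollip, Ccdc117, Spty2d1 and Ppp4r3b. The zinc finger gene Plagl2 read 7.44, 7.93 and 7.78 at 24 h, against 6.91, 6.63 and 6.73 at 1 h, and rose by 0.96 ± 0.16 (SE, limma adjusted p = 7.49e-05).

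In the chromatin group, Spty2d1, a histone chaperone, read 8.75, 8.95 and 8.72 at 24 h, against 7.97, 8.00 and 7.73 at 1 h, and rose by 0.91 ± 0.11 (SE, limma adjusted p = 3.61e-06 with Benjamini-Hochberg). Arid1a, a subunit of the BAF remodelling complex, rose by 0.50 ± 0.10 (SE) at 24 h against 1 h (limma adjusted p = 0.000522). At 8 h against 2 h all 10 chromatin members had a negative difference and 4 fell: Mbd1, a methyl-CpG binding protein (-0.65), the histone demethylase Kdm6a (-0.58), Phf23 (-0.37) and Npat, a coactivator of histone genes (-0.32). Without 1 array, Mbd1 ranged from -0.81 to -0.49, Kdm6a from -0.61 to -0.54 and Phf23 from -0.43 to -0.29. The call for Npat was lost without replicate 2 or 3 at 2 h. With the mean of its 5 probe sets Mbd1 did not pass (-0.18, limma adjusted p = 0.092), and its second brightest probe set gave 0.15. Over all members 20.6% fell there, and over all tested genes 2.49%. At 2 h against 1 h Phf13 alone of the 10 rose (0.69), a call kept in 2 of 6 fits without 1 array.

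Of the 10 members that act in chromosome segregation, 1 rose at 2 h against 1 h and 3 fell at 8 h against 2 h, and all 10 differences were positive in the first comparison. These counts were near those of all members (16.9% and 20.6%), beside 0.664% and 2.49% of all tested genes. Cenpl, a protein of the inner kinetochore, read 7.62, 7.65 and 7.19 at 0 h, 7.44, 7.63 and 7.37 at 1 h, 8.20, 8.28 and 8.24 at 2 h, 8.57, 8.01 and 8.28 at 4 h, 7.40 and 7.21 at 8 h, 7.33, 7.41 and 7.10 at 12 h and 7.46, 7.56 and 7.25 at 24 h. The arrays at 2 and 4 h lay above all arrays at the other 5 times. It rose by 0.76 ± 0.14 (SE) at 2 h against 1 h and fell by 0.94 ± 0.15 (SE) at 8 h against 2 h (limma adjusted p = 0.0095 and 0.00116 with Benjamini-Hochberg). The rise was lost without replicate 3 at 1 h or replicate 2 at 2 h.
Kif18a, a kinesin that aligns chromosomes, read 8.58, 8.62 and 8.48 at 1 h, 8.88, 8.97 and 9.05 at 2 h and 8.30 and 8.29 at 8 h. The 2 h arrays stood above both other times, and Kif18a fell by 0.68 ± 0.11 (SE) at 8 h against 2 h (limma adjusted p = 0.00104), while the earlier difference of 0.41 did not pass (adjusted p = 0.0686). Cenpe, the kinetochore kinesin, fell by 0.44 ± 0.10 (SE) at 8 h against 2 h (limma adjusted p = 0.00788), a call lost without replicate 2 at 8 h, but its second probe set was 0.92 below the controls at 4 h where the chosen one was 0.41 above. The other members here, Sgo2a, Cdca2, Cdca5, Mad2l1bp, Prr11, Gtse1 and Champ1, stood between 0.41 and 0.69 above the controls at 4 h. The list of G2/M and mitosis genes held 1 member of 28, Cenpe.

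The 9 members for tRNA modification and ribosome assembly had a negative difference at 24 h against 8 h in every case, and 5 of them fell: Riok2, Adat3, Nol9, Srfbp1 and Utp23 (which was 0.50 higher on the probe set used without the _x_ and _s_ types). Of all members 14.0% fell there, and of all tested genes 10.0%. Riok2, a kinase that matures the small ribosomal subunit, read 8.48, 8.66 and 8.33 at 1 h, 8.70, 8.84 and 8.91 at 2 h, 7.93 and 8.22 at 8 h and 7.38, 7.41 and 7.04 at 24 h. The 8 h arrays lay below those at 1 h and 2 h, and the 24 h arrays lay below those at 8 h, with no overlap. It fell by 0.74 ± 0.12 (SE) at 8 h against 2 h, by 0.80 ± 0.12 (SE) at 24 h against 8 h and by 1.21 ± 0.11 (SE) at 24 h against 1 h (limma adjusted p = 0.00116, 0.000112 and 1.08e-07 with Benjamini-Hochberg), the first of which was lost without replicate 1 at 8 h. Adat3, a subunit of the tRNA adenosine deaminase, read 6.78, 6.96 and 6.78 at 24 h, against 7.62 and 7.50 at 8 h, and fell by 0.72 ± 0.08 (SE, limma adjusted p = 7.62e-06).
Trmt10c, a tRNA methyltransferase and subunit of mitochondrial RNase P, read 8.96, 9.03 and 8.89 at 1 h, 9.42, 9.52 and 9.62 at 2 h and 9.17 and 9.24 at 8 h. Each of these times stood apart from the others. It rose by 0.56 ± 0.08 (SE) at 2 h against 1 h (limma adjusted p = 0.00194) and fell by 0.31 ± 0.09 (SE) at 8 h against 2 h (adjusted p = 0.0389, kept in 1 of 5 fits without 1 array). Utp23, which acts in early assembly of the small subunit, was the member whose mean was highest at 8 h, with 9.51 and 9.62, against 9.19, 9.37 and 9.13 at 2 h. The rise of 0.33 (limma adjusted p = 0.0442) was lost without replicate 1 or 3 at 2 h. It lay between 0.28 and 0.40 over the 5 fits without 1 array, and the difference was -0.41 on the probe set used without the _x_ and _s_ types. The other probe sets of Utp23 were 0.30, 0.23 and 0.23 above the controls at 12 h, beyond the limit of 0.1, so membership rests on the chosen one.

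Rps15a encodes a protein of the small ribosomal subunit, and its single named probe set read only 5.89, 5.70 and 5.49 in the controls, just above the nonspecific level. It read 6.40, 6.45 and 6.14 at 1 h, 7.002, 6.91 and 6.73 at 2 h, 6.88, 6.18 and 6.60 at 4 h and 5.52 and 5.45 at 8 h. The 2 h arrays lay above those at 1 h and 8 h, and it fell by 1.397 ± 0.16 (SE) at 8 h against 2 h (limma adjusted p = 5.88e-05 with Benjamini-Hochberg), the largest fall of the members there. Whether this dim probe set follows the main transcript of the gene was not tested.

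Of the 8 members in the ubiquitin group, 2 rose at 2 h against 1 h, Fem1c and Topors. Fem1c is a substrate receptor of a cullin ligase, and Topors is a ubiquitin and SUMO ligase. Over all 136 members 16.9% rose there, and over all tested genes 0.664%. Topors rose by 0.33 (limma adjusted p = 0.0216 with Benjamini-Hochberg), a call kept in 2 of 6 fits without 1 array. Averaging the 3 probe sets of Topors gave 0.42 and no call (limma adjusted p = 0.828). Fem1c read 8.91, 8.998 and 8.98 at 2 h, against 8.49, 8.17 and 8.20 at 1 h, and rose by 0.67 ± 0.11 (SE, limma adjusted p = 0.00472 with Benjamini-Hochberg), but its second probe set differed by -0.34 there and by -0.63 from the controls at 4 h. With the mean of both probe sets the difference at 2 h was 0.17 (adjusted p = 0.923). Marchf7, a membrane-associated RING ligase, read 10.46 and 10.37 at 8 h, against 10.80, 10.85 and 10.84 at 2 h, and fell by 0.42 ± 0.08 (SE, limma adjusted p = 0.00206). It rose by 0.47 ± 0.08 (SE) at 24 h against 8 h (adjusted p = 0.00016). With the mean of its 5 probe sets neither passed (-0.48 and 0.20, limma adjusted p = 0.205 and 0.627).

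The 8 vesicle transport members all had a positive difference at 24 h against 1 h and 6 rose. Of all members 59.6% had a positive difference there and 33.1% rose, beside 26.8% of all tested genes and 33.9% of the brighter ones. The call for Rab9 was kept in 3 of 6 fits without 1 array and that for Wasl in 5 of 6. Tollip, an adaptor of endosomal sorting and innate signalling, read 9.12, 9.19 and 9.03 at 24 h, against 8.47, 8.52 and 8.40 at 1 h, and rose by 0.65 ± 0.07 (SE, limma adjusted p = 1.62e-06 with Benjamini-Hochberg). Stx3, a syntaxin of membrane fusion, was the member lowest relative to the controls at 2 h (-0.33), with 8.58, 8.59 and 8.65 at 2 h, 9.17, 9.58 and 9.55 at 4 h and 8.997 and 8.95 at 8 h. Its rise of 0.36 at 8 h against 2 h (limma adjusted p = 0.0428) was lost without each of the 5 arrays in turn.

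Cyp51, the lanosterol demethylase of cholesterol synthesis, and Aacs, which activates acetoacetate for lipid synthesis, stayed up at 8 h and were low at 24 h. Cyp51 read 10.13, 10.24 and 9.84 at 1 h, 10.42, 10.34 and 10.34 at 2 h, 10.75 and 10.67 at 8 h and 10.06, 10.01 and 9.91 at 24 h. The 8 h arrays were above the other 3 times. It rose by 0.64 ± 0.10 (SE) at 8 h against 1 h and fell by 0.72 ± 0.10 (SE) at 24 h against 8 h (limma adjusted p = 0.000599 and 3.2e-05 with Benjamini-Hochberg). Aacs read 8.80, 8.89 and 8.72 at 1 h, 9.30 and 9.29 at 8 h and 8.50, 8.45 and 8.28 at 24 h. It rose by 0.49 ± 0.08 (SE) and then fell by 0.88 ± 0.08 (SE) in the same comparisons (limma adjusted p = 0.00143 and 6.7e-07), and after its probe sets were averaged the rise did not pass (0.20, adjusted p = 0.154). In the stress group Sesn2, Bag3, Herpud1 and Ambra1 were 0.50, 0.56, 0.40 and 0.47 above the controls at 4 h, and the rise of Bag3 at 24 h against 1 h (0.36) was the 1 difference of the 4 genes that passed, and it was lost without replicate 3 at 1 h.

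Several members have more than 1 probe set, which gives a second reading of the gene from other probes on the same arrays. There were 161 other single-symbol probe sets for 86 members, and 89 of them, for 56 members, had a mean above 6. Among these 89, 63 were above the controls at 4 h and 26 below, with a median of 0.24. At least 0.4 above were 28, and 22 met both the 4 h and the 12 h difference of the limits. At 2 h minus 1 h 77 of the 89 had a positive difference (median 0.22), and at 8 h minus 2 h 64 had a negative one (median -0.13). Of the 8878 brighter tested genes 55.8% had a positive difference in the first comparison, and 3850 a negative one in the second. The probe sets of Rbm14, Gpatch8, Cdca4, Csnk1d and Cyp51 were the nearest to each other at 4 h among members with 3 or more probe sets, with Gpatch8 at 0.63, 0.65 and 0.57. Those of Prpf4b, Zfp451, Fem1c, Cenpe and Tbpl1 were furthest apart, with a second probe set of Prpf4b at -0.91, of Zfp451 at -0.82 and of Tbpl1 at -0.63, against 0.59, 0.61 and 0.57 on the chosen one.

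Only 2 pairs of members were next to each other among coding genes in the RefSeq order, Rbm4 with Rbm14 on chromosome 19 and Smg8 with Prr11 on chromosome 11. A further 3 pairs had 1 coding gene between them: Klf16 and Adat3, Znrf3 and Ccdc117, and Pggt1b and Fem1c.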

How the data were processed

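Total RNA was labelled as biotinylated cRNA and hybridised to Affymetrix Mouse MG-430 PM array strips, per the labels. The deposited values are log2 signals of 45141 probe sets on 20 arrays; the authors' background correction, normalization and summary of probes were not given in the sources used here, and the values were used as deposited. The platform annotation gave 28898 probe sets a single symbol and 551 several. For each gene the probe set with the highest mean was kept. A gene entered the tests if at least 1 group mean exceeded 4.81, the 40th percentile, and 12944 did. The 5 comparisons were fitted with limma 3.58.1 in R 4.3.3 (lmFit and eBayes, all 20 arrays in 7 groups, 13 residual degrees of freedom). Tests were two-sided and adjusted after Benjamini and Hochberg over the 12944 genes, separately within each comparison. No comparison uses the 0, 4 or 12 h arrays as a side, although these enter the shared estimate of the spread. The fit was checked on simulated data.

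The members and gene lists were chosen with earlier results of these data known, and roles and printed promoters after the values were seen. Named are the 12 members highest at 4 h, up to 5 largest calls per comparison and direction without overlap of arrays, list members, genes beside the limits, the extremes at 12 h and 24 h, members whose probe sets differ most or least, and Prkaa1 and Prkaa2; others named were chosen after their values were seen. Riken clones are counted only. Alternatives tried were normalization, filter, probe set choice, variance model, array weights, replicate number, threshold and leaving out arrays. Figures used Python 3.11.15 with matplotlib 3.10.9.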

Additional observations from a re-analysis of the deposited data

Results flagged for a closer look

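Outside the named genes, 87 probe sets with no single gene symbol met the same limits as the members. They come from 16139 unnamed probe sets, 3885 of which had a 4 h mean above 6. Of the 8792 named genes above that level, 136 are members. The 2 counts differ in unit, since the unnamed probe sets were not reduced to 1 per gene. The median difference of the 87 at 4 h minus 0 h was 0.49, which the limits fix. At times the limits did not use, 85 of the 87 had a positive difference at 2 h minus 1 h (median 0.26) and 73 had a negative one at 8 h minus 2 h (median -0.29). Over all 12944 tested genes 53.7% had a positive difference in the first and 6061 a negative one in the second. Among the 136 members these counts were 132 and 106. The genes they measure are not named here.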

How the results depend on the processing

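The number of members was 85 with a gene's probe sets averaged, 75 with a rise of 0.5 in place of 0.4, and 114 to 148 without 1 array at 0, 4 or 12 h. For 2 h against 1 h the 23 calls became 9 at an adjusted p of 0.01, 14 with the mean of all probe sets, 8 with median centring, 7 to 23 without 1 array and 3 without replicate 3 at both times, an alternative added after the data were seen; 0 members fell in any of these. For 8 h against 2 h the 33 calls became 18, all lower, at an adjusted p of 0.01, 21 with median centring, 20 when only the 2 groups were fitted, 51 with quantile normalization, and 12 to 27 without 1 array. For 8 h against 1 h the 28 calls became 9 at an adjusted p of 0.01, 18 with the mean of all probe sets, 14 with median centring and 7 to 25 without 1 array. For 24 h against 8 h the 35 calls became 23 at an adjusted p of 0.01, 53 with array weights and 24 to 34 without 1 array. For 24 h against 1 h the 66 calls stayed within 1.5 times, with 57 to 68 without 1 array. The cause of these shifts was not tested, beyond the fewer samples or the stricter limit that an alternative sets by construction.

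Same-numbered arrays in different groups had a mean correlation of deviations of 0.25 (39 of 57 pairs over 0.1), against -0.12 for different numbers (36 of 114 pairs over 0.1), and 12 of 20 arrays correlated best with their own number. This is a hint of shared structure in the data, but the labels give the numbers no meaning and not every pair was over 0.1, so the main results have no block. With the replicate number as a block (replicate block), 50 members were called at 8 h against 2 h (5 higher, 45 lower, beside 5 and 28 without the block) and 32 at 2 h against 1 h (32 higher), and the other counts stayed within 1.5 times. With members chosen without replicate 2 at 4 h (145 genes, added after the data were seen), 27 rose and 0 fell at 2 h against 1 h, and 5 rose and 36 fell at 8 h against 2 h.

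Among single genes 9 values changed sign. With the mean of all probe sets these were Cdip1 (-0.0078) and Rbm12 (-0.016) at 8 h against 1 h, Csnk1d (-0.0087), Snrnp48 (-0.10) and Zfx (-0.17) at 24 h against 1 h, and Snrnp48 (-0.017) at 8 h against 2 h. Without _x_ and _s_ probe sets they were Csnk1d (-0.24) at 24 h against 1 h and Utp23 (0.50 at 24 h against 8 h, -0.41 at 8 h against 2 h). Another 547 values of single genes kept their direction and lost the call, and 2492 kept both. The number of arrays, 2 at 8 h and 3 elsewhere, limits the precision of every difference.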
